A study of Mus musculus with 10 samples.

Results

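Cyclic nucleotide phosphodiesterases are the enzymes that hydrolyse cAMP and cGMP, and the open chromatin regions (OCRs) at 7 genes of this family, Pde3b, Pde4a, Pde4b, Pde4d, Pde7a, Pde8a, and Pde10a, were compared among ILC2s of 5 tissues. An OCR was counted as a member when its centre lay inside a curated RefSeq transcript of a listed gene or when its nearest curated transcription start site (TSS) belonged to such a gene. In total, 96 of the 50039 OCRs of the series met this rule, with 9 at Pde3b, 8 at Pde4a, 28 at Pde4b, 29 at Pde4d, 10 at Pde7a, 4 at Pde8a, and 8 at Pde10a. The genes were chosen by earlier results of these data, in which Pde4b and Pde10a were high in the large intestine, so values of the large intestine are given as a description with no test. All 96 members had counts in every library and were tested, with 4 as the lowest count of a member in a library and 280 as the lowest sum over the libraries.

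ATAC-seq, in which the Tn5 transposase cuts accessible DNA, was performed on group 2 innate lymphoid cells (ILC2s) of wild-type C57BL/6 male mice aged 6 weeks. Lung, pancreas, bone marrow (BM), and the small (SI) and large intestine (LI) were sampled from untreated animals, with 50000 sorted cells in each library and a pair of libraries, described as biological duplicates, from each tissue. Each BM, lung, or pancreas library came from a pool of 16 mice and each intestinal library from 10, so a library does not give the spread between mice. BM ILC2s were sorted as Lin- cells with ST2 and CD25, LI, lung, and pancreas ILC2s additionally by CD45 and CD127, and SI ILC2s by CD45, CD127, KLRG1, and a Thy1 level that the labels and the methods word differently. BM cells were sorted on another instrument than the rest, so the gate, the sorter, the way of preparing the tissue, and the tissue cannot be told apart. In pooled cells such as these, fewer cells with an open region and less opening in each cell cannot be told apart either.

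cAMP is produced by adenylyl cyclases downstream of receptors coupled to Gs, among them receptors for adrenaline, prostaglandins, and neuropeptides, and acts through protein kinase A, EPAC, and the transcription factor CREB. Phosphodiesterases end this signal. PDE4, PDE7, and PDE8 enzymes are specific for cAMP, whereas PDE3 and PDE10 enzymes hydrolyse both cAMP and cGMP, and PDE4 enzymes are the main target of drugs that raise cAMP in leukocytes. Several family members are long genes with many start sites, each giving an isoform with another N-terminus.

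The members lie on 6 chromosomes of GRCm38.p6, which has the coordinates of mm10. Pde4b (chr4:102087332-102607275) and Pde4d (chr13:108654177-109955969) are the longest along with Pde10a (chr17:8525187-8986648), whereas Pde3b (chr7:114415222-114537938), Pde8a (chr7:81213265-81334535), Pde7a (chr3:19223108-19311322, minus strand), and Pde4a (chr9:21165700-21213248) are shorter. OCRs are named by the gene and the distance in kb of their centre from its first curated TSS, counted in the direction of transcription. Of the 96 members, 75 had their centre inside a listed gene and 21 were members by their nearest TSS alone. A further distinction concerned 30 of the former, whose nearest TSS belonged to another gene, among them 13 in Pde4d nearest to Mir582, 13 in Pde4d nearest to Mir1904, and 3 in Pde3b nearest to Cyp2r1. By class, 8 members were promoter OCRs (centre no more than 1000 bp before or 100 bp after a TSS), 71 were intragenic, and 17 were intergenic.

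The sequences of 6 OCRs on which the comparisons below turn are given first. Each is the central 300 bp on the plus strand of GRCm38.p6 from RefSeq, with matches to the motifs searched in capitals (AP-1 TGANTCA, RUNX TGTGGT, KLF GGGTGT, the GATA motif AGATAA, ROR AGGTCA, the cAMP response element TGACGTCA and its short form TGACG, on either strand). The first OCR lies just past the end of Pde4b and was among the most variable. The second lies in intron 1, 1211 bp from the nearest curated start, and was lowest in SI ILC2s. They are followed by the OCR of Pde10a with the smallest p among the 4 tissues tested and the Pde10a OCR with the largest LI value relative to the rest, by the BM-high OCR of Pde4d, and by the Pde7a promoter, which holds a full cAMP response element.
Pde4b +353 kb (chr4:102607880-102608179, plus strand): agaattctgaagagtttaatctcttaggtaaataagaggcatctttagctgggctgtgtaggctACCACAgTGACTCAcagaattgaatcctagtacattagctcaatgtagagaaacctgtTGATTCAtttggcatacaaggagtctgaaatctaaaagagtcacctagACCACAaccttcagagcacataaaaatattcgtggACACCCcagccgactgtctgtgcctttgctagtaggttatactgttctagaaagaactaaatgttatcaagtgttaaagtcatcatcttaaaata
Pde4b +1.7 kb (chr4:102256293-102256592, plus strand): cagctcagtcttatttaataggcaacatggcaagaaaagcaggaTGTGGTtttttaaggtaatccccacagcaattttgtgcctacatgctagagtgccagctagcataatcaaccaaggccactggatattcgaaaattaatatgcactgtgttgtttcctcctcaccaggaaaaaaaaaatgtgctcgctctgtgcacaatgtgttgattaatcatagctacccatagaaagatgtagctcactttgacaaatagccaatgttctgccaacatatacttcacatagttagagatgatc
Pde10a +346 kb (chr17:8872207-8872506, plus strand): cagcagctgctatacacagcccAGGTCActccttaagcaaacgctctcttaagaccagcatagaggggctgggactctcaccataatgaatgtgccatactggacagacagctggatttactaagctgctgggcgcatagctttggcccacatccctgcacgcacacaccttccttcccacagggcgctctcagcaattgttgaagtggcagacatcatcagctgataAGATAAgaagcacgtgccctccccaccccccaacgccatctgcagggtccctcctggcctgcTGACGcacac
Pde10a -2.4 kb (chr17:8524222-8524521, plus strand): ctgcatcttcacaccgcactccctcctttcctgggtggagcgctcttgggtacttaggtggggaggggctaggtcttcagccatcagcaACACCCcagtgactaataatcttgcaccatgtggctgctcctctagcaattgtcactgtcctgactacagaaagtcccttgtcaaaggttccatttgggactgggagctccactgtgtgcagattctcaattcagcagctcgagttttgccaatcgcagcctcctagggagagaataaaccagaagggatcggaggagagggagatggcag
Pde4d +998 kb (chr13:109651824-109652123, plus strand): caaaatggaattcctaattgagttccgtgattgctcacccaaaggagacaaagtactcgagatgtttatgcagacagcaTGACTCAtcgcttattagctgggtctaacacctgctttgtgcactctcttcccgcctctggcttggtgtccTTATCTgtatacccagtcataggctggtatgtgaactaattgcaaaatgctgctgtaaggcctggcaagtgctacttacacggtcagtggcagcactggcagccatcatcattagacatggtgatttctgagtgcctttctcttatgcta
Pde7a -0.2 kb (chr3:19311352-19311651, plus strand): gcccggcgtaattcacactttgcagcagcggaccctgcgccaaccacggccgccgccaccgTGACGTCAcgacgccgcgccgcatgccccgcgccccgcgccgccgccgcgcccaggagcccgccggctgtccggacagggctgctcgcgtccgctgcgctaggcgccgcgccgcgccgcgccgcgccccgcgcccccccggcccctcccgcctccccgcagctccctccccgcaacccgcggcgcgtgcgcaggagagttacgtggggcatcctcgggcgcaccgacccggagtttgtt

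Total counts lay between 10282987 (pancreas replicate 2) and 32797872 (lung replicate 2), and values are given as CPM, the count scaled by the TMM-normalized library size, replicate 1 before replicate 2. The share of counts in the largest single OCR ran from 1.78% to 9.00% and was highest in pancreas replicate 2 and LI replicate 1. The 2 libraries of a tissue correlated over all OCRs with a Spearman rho between 0.927 (SI) and 0.975 (lung). As a check of the cell type, promoter OCRs were present for 11 of 12 ILC2 markers, including Gata3 and Rora, while Thy1 had none. Their summed level lay between 318 and 496 CPM in the 10 libraries. Single markers varied more, with Il1rl1 between 3.55 and 41.9 CPM and Klrg1 between 11.2 and 75.4, whereas Gata3 lay between 58.3 and 91.0. No promoter OCR was present for the 4 B cell, 5 mast cell and basophil, and 4 pancreas acinar markers. Those present for 2 of 5 T cell markers (Cd3e, Cd3g), 1 of 5 myeloid markers (Cd68), and 2 of 5 epithelial markers (Cdh1, Krt18) summed to at most 10.0, 16.5, and 12.0 CPM, with Cd68 between 15.4 and 16.5 CPM in SI and between 7.39 and 11.0 CPM elsewhere. The part of such cells in the results below was not tested.

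Summed over the OCRs of each gene and divided by their width, the level of accessibility followed a different order of tissues at most of the genes. At Pde4b, the LI libraries had 25.4 and 27.8 CPM per kb, the SI libraries 22.7 and 21.0, BM 16.0 and 16.2, lung 15.5 and 15.4, and pancreas 14.2 and 15.6. Both intestinal tissues therefore lay above the other 3 with no overlap, LI was above SI, and lung and pancreas overlapped. At Pde10a, the LI libraries had 21.3 and 24.7 CPM per kb, followed by BM with 12.9 and 15.1, SI with 12.8 and 14.6, pancreas with 10.6 and 11.6, and lung with 8.25 and 7.81. BM and SI overlapped, whereas the other neighbours in this order did not. At Pde4d, which encodes a cAMP-specific enzyme, the SI libraries were lowest with 16.3 and 17.9 CPM per kb, and the other 4 tissues, which formed a chain of overlapping neighbours, ran from 20.3 to 24.9.

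Pde4a, whose product is another cAMP-specific enzyme, was highest in lung, with 56.4 and 61.6 CPM per kb against 46.9 and 53.5 in BM, and the libraries of BM, SI, pancreas, and LI overlapped in that order down to 35.9 ± 0.12 (SD, n = 2) in LI. At Pde8a, SI (27.2 ± 0.45) and lung (27.1 ± 0.48) overlapped and lay above LI (24.3 ± 1.32) and pancreas (22.5 ± 1.29), which overlapped with each other, and BM was lowest (19.3 ± 1.06). At Pde3b, LI (18.5 ± 0.02) was above and lung (13.2 ± 0.88) below the other 3 tissues, which overlapped. Pde7a ran from 19.7 ± 2.74 CPM per kb in SI to 25.7 ± 2.48 in LI, and only BM and pancreas, as neighbours in the order, did not overlap. Per kb, the OCRs of Pde4a were the most accessible of the 7 genes in each tissue.

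**Figure D1:**
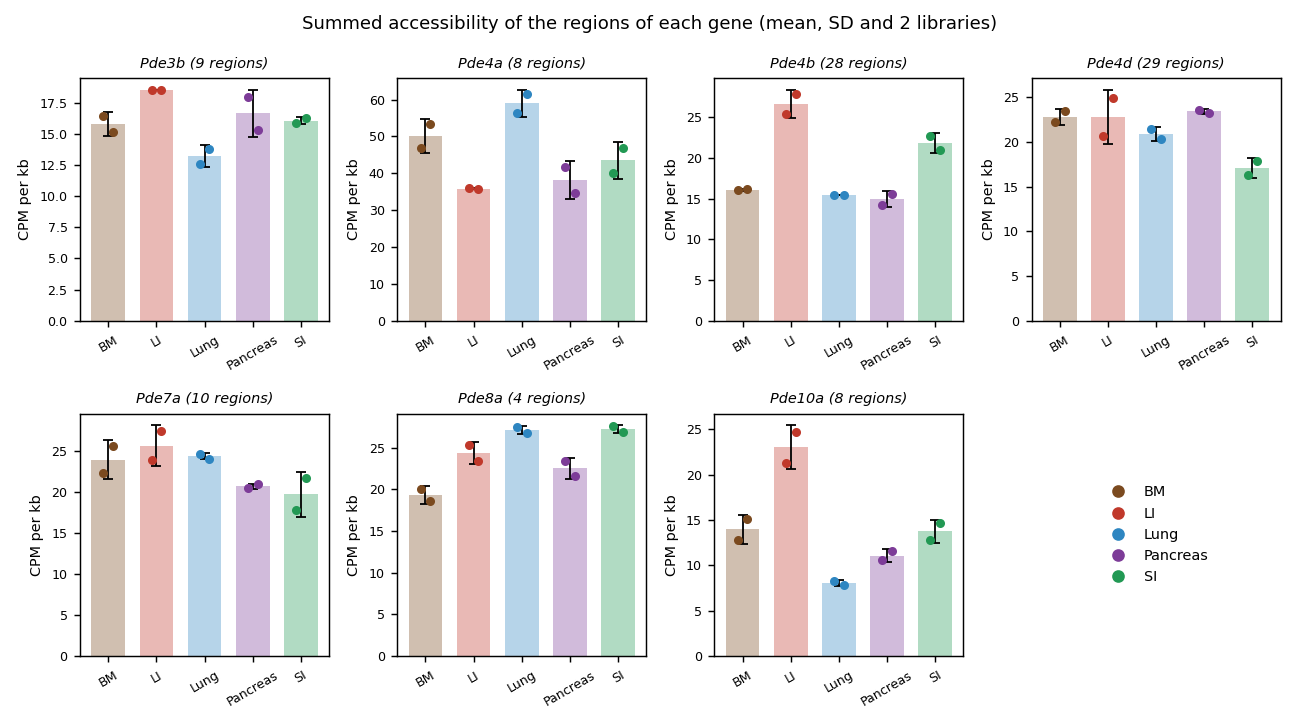
Summed accessibility of the OCRs of each of the 7 genes in CPM per kb (y axis, from 0) in the 5 tissues, with bars for the mean of 2 libraries, error bars for the SD, and points for the libraries. Pde4b is higher in LI and SI than in the other tissues, Pde10a is highest in LI and lowest in lung, and Pde4d is lowest in SI.

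To determine whether these OCRs differed among tissues outside LI, the counts of all 49981 OCRs with a count were fitted together with edgeR, and the quasi-likelihood F test compared BM, lung, pancreas, and SI. Of the 96 members, 48 differed at a Benjamini-Hochberg adjusted p under 0.05, which is 50.0%, against 42.8% of all tested OCRs. The OCRs that differed were 17 of 28 at Pde4b, 12 of 29 at Pde4d, 5 of 8 at Pde4a, and 4 each at Pde3b, Pde7a, and Pde10a, along with 2 of 4 at Pde8a. By class, they were 4 of 8 promoter, 32 of 71 intragenic, and 12 of 17 intergenic members, against 26.9%, 46.3%, and 47.0% of all OCRs of these classes. Among the 48, the highest of the 4 tissues was SI at 21 (43.8%), BM at 16 (33.3%), pancreas at 7 (14.6%), and lung at 4 (8.33%), against 30.5%, 25.0%, 27.6%, and 16.8% of all OCRs that differed. Whether choosing genes by their LI level also raised the share of members high in SI, here or in the pairs below, was not tested.

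In pairs of tissues, 20 of 96 members (20.8%) were higher in SI than in lung, against 11.1% of all OCRs, and 12 of the 20 were at Pde4b. In the opposite direction, 6 members (6.25%) were higher in lung against 9.86%. SI was higher than pancreas at 15 members (15.6%), 12 of them at Pde4b, against 8.45% of all OCRs, and pancreas was higher than SI at 10 (10.4%), 7 of them at Pde4d, against 12.0%. BM was higher than lung at 15 members (15.6%) against 7.56%, with 7 at Pde4d and 3 each at Pde4b and Pde10a, and lung was higher than BM at 6 (6.25%) against 11.5%.

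BM was higher than SI at 13 members (13.5%) against 10.7%, with 8 at Pde4d, and SI was higher than BM at 15 (15.6%) against 15.1%, with 8 at Pde4b. BM exceeded pancreas at 10 (10.4%) against 9.89%, and pancreas exceeded BM at 7 (7.29%) against 14.3%. Lung was higher than pancreas at 2 members (2.08%), both at Pde4a, against 1.62%, and pancreas was higher than lung at 5 (5.21%) against 4.2%. When only library size was used for scaling, the split between directions was 11 to 9 for BM against lung, 8 to 24 for BM against SI, 9 to 2 for lung against pancreas, and 8 to 23 for pancreas against SI, and with a trend in GC content removed it was 12 to 3 for BM against pancreas, 17 to 13 for BM against SI, and 6 to 3 for lung against pancreas. The median log2 difference of the Pde4b OCRs was -0.80 for pancreas minus SI and -0.67 for lung minus SI, against -0.06 and -0.04 over all OCRs, and that of the Pde4d OCRs was 0.36 and 0.12.

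**Figure D2:**
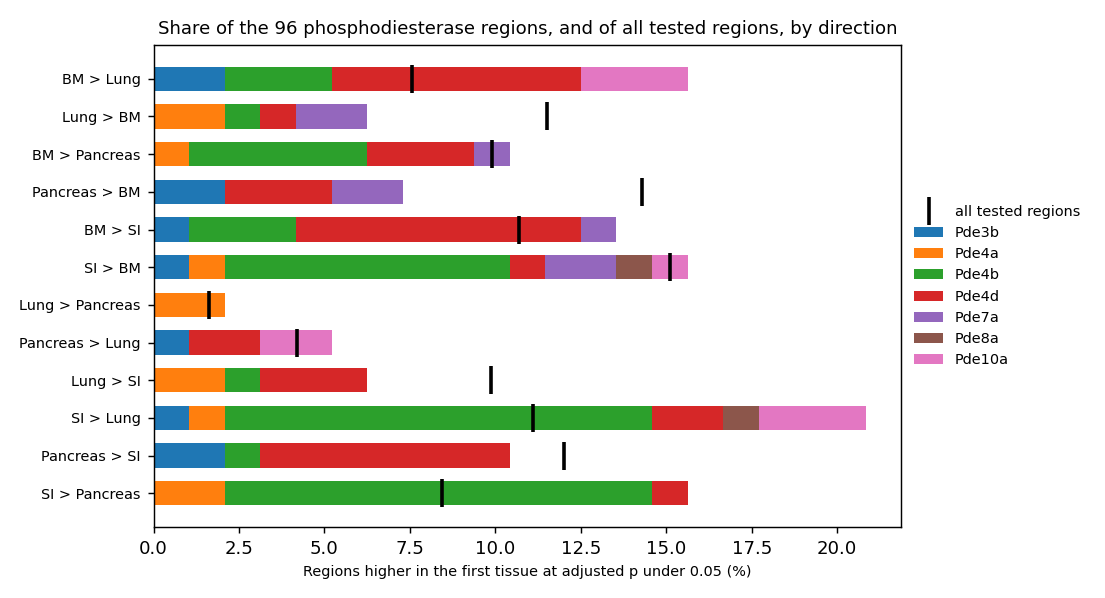
Share of the 96 members that were higher in the first tissue of each pair at an adjusted p under 0.05 (x axis, percent), stacked by gene, with a black mark for the share of all 49981 tested OCRs. The bars for SI over lung and SI over pancreas consist mostly of Pde4b, and those of BM or pancreas over SI mostly of Pde4d.

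Pde4b is the PDE4 gene that is induced by inflammatory stimuli in many leukocytes. Its 28 OCRs fell into an upstream part with few OCRs, a dense stretch from +239 kb to +333 kb, and 8 OCRs beyond the end of the gene. The SI level was the highest of the 4 tested tissues at 14 of the 17 OCRs that differed, and BM was the highest at the other 3. Over all OCRs that differed, these shares were 30.5% for SI and 25.0% for BM.

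The 8 downstream OCRs, from +353 kb to +402 kb, began 0.491 kb and ended 50.3 kb past the last base of Pde4b, and the next coding gene, Sgip1, started 83.8 kb further on. Each of the 8 differed among the 4 tested tissues, against 42.8% of all tested OCRs. Their summed level was 93.0 and 117 CPM in SI, 55.9 and 53.6 in BM, 47.0 and 42.9 in lung, and 36.5 and 42.8 in pancreas, beside 144 and 160 in LI. Both SI libraries lay above each library of the other 3 tested tissues. SI was higher than lung at 7 of the 8, than pancreas at 6, and than BM at 3, against 11.1%, 8.45%, and 15.1% of all OCRs. Inside the gene, the 20 OCRs summed to 279 and 227 CPM in SI, beside 272 and 296 in LI. The 6 libraries of BM, lung, and pancreas had between 196 and 212 CPM. Of the 20, 9 differed, and SI was higher than lung at 5, than pancreas at 6, and than BM at 5.

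Pde4b +353 kb (chr4:102607766-102608294), printed above, was the most accessible downstream OCR. It had 27.9 and 40.7 CPM in SI, 13.9 and 15.6 in lung, and lower values of 8.89 and 11.6 in pancreas and of 8.17 and 5.84 in BM, beside 60.1 and 60.6 in LI. The SI libraries exceeded the 6 libraries of the other tested tissues, and the lung libraries exceeded those of pancreas and BM. It was 4.90-fold higher in SI than in BM (log2 difference 2.29, SE 0.25, edgeR adjusted p = 1.34e-05), 3.37-fold higher than in pancreas (adjusted p = 0.000128), 2.33-fold higher than in lung (adjusted p = 0.00145), and 2.11-fold higher in lung than in BM (adjusted p = 0.00497).

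A similar order was found at Pde4b +380.8 kb (chr4:102635235-102635772), which had 7.51 and 13.0 CPM in SI and between 2.21 and 3.12 CPM in the 6 libraries of BM, lung, and pancreas. SI exceeded BM 4.20-fold (log2 difference 2.07, SE 0.33, adjusted p = 0.000307). Pde4b +370 kb (chr4:102624413-102625011) had 20.6 and 20.8 CPM in SI, 13.8 and 13.6 in BM, 12.8 and 11.9 in lung, and 8.60 and 5.93 in pancreas, beside 33.6 and 41.4 in LI. Here the BM libraries lay just above those of lung, and SI exceeded pancreas 2.81-fold (adjusted p = 0.000348).

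Pde4b +386 kb (chr4:102640834-102641369) departed from its neighbours. BM was highest, with 12.7 and 13.1 CPM against 6.55 and 5.54 in SI, 5.49 and 3.37 in lung, and 3.47 and 4.31 in pancreas, and no library of another tissue, LI with 7.93 and 9.17 included, reached the BM values. The difference was 3.34-fold over pancreas (log2 1.74, SE 0.30, adjusted p = 0.000755) and 2.14-fold over SI (adjusted p = 0.00948).

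Near the first curated start, the pattern was the opposite of the downstream OCRs. Pde4b +1.7 kb (chr4:102256150-102256737, intron 1), printed above, had 0.674 and 0.453 CPM in SI, while pancreas had 7.30 and 6.15, lung 6.74 and 6.16, and BM 8.76 and 7.73. LI, with 2.35 and 3.21, lay between SI and the rest with no overlap. SI was 14.8-fold lower than BM (log2 difference 3.88, SE 0.36, adjusted p = 3.51e-06), 12.1-fold lower than pancreas (adjusted p = 6.66e-06), and 11.5-fold lower than lung (adjusted p = 7.06e-06), the largest fold among the 124 pairwise differences that passed the threshold at members being that of BM over SI here. Pde4b +36 kb (chr4:102290036-102290536, intron 1) was high in BM alone among the 10 libraries, with 10.7 and 6.53 CPM against 1.40 to 2.96 CPM in the other 8, and exceeded SI 5.77-fold (adjusted p = 0.000369).

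In the middle of the gene, the most accessible OCR was Pde4b +316 kb (chr4:102570058-102570672), which covers an internal curated start and a UTR. It had between 36.9 and 51.4 CPM in the 10 libraries and BM, lung, pancreas, and SI overlapped (F test, adjusted p = 0.80), while LI, with 48.0 and 51.4 CPM, overlapped with lung alone. The promoter OCR Pde4b +315 kb (chr4:102568987-102569581) was at 19.5 to 34.7 CPM and was not called either (adjusted p = 0.63). The other internal start with an OCR, Pde4b +333 kb (chr4:102587222-102588079), a promoter OCR, did differ. It had 10.3 and 7.32 CPM in SI and 9.68 and 9.17 in LI against 2.20 to 5.18 CPM in the 6 libraries of BM, lung, and pancreas, and SI exceeded lung 3.24-fold (log2 difference 1.70, SE 0.34, adjusted p = 0.00174). Among intronic OCRs, Pde4b +277 kb (chr4:102531698-102532198) rose from 1.27 and 1.20 CPM in BM to 6.21 and 4.42 in SI (4.28-fold, adjusted p = 0.00214).

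**Figure D3:**
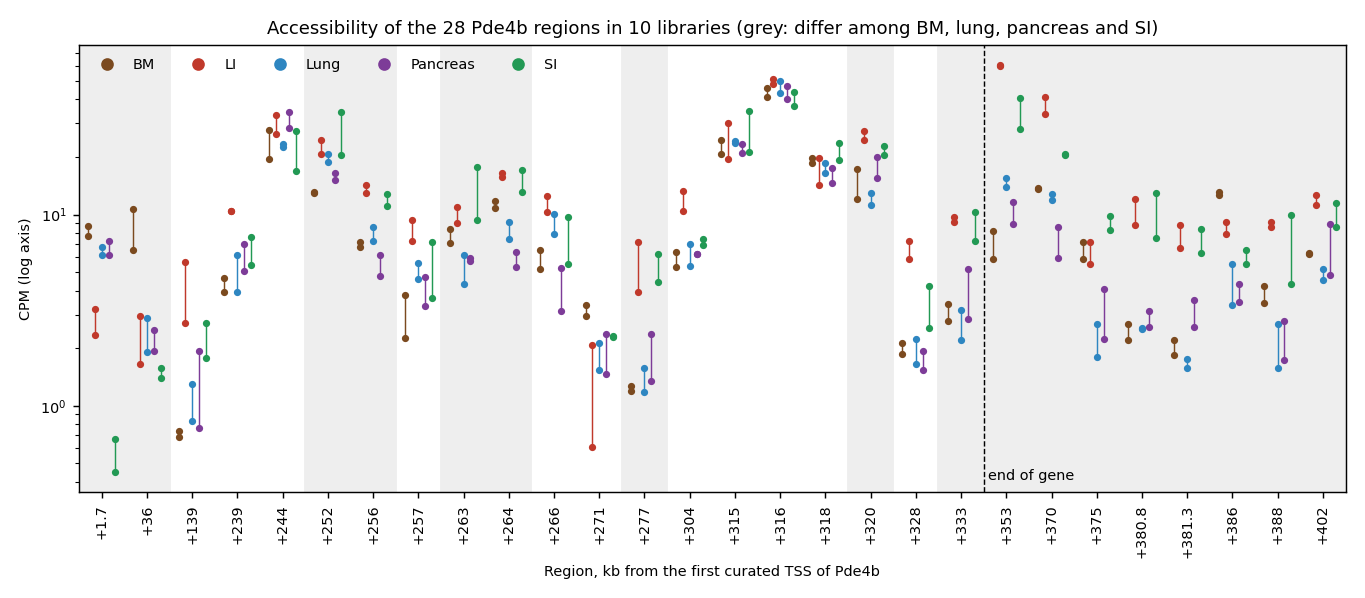
CPM (log axis) of the 28 Pde4b OCRs in order of their distance in kb from the first curated TSS, with 2 joined points for the libraries of each tissue, grey shading for OCRs that differed among BM, lung, pancreas, and SI, and a dashed line at the end of the gene. The SI and LI libraries lie above those of lung and pancreas at 7 of the 8 downstream OCRs, all but +402 kb. Among these 7, +386 kb is highest in BM. At the other end, +1.7 kb is lowest in SI.

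For each of the 48 members that differed, the tissues with the highest and lowest mean CPM among BM, lung, pancreas, and SI were taken. The difference between them was followed through 17 alternatives. At Pde4b, it kept its call in each of the 17 at 11 of 17 OCRs, +1.7, +36, +264, +277, +333, +353, +370, +375, +380.8, +381.3, and +386 kb. The calls of SI over lung at +388 kb (adjusted p = 0.0043) and +402 kb (adjusted p = 0.0169) were lost without lung replicate 2 (adjusted p = 0.0865 and 0.154), and also without SI replicate 2 (adjusted p = 0.0815) for the former and without lung replicate 1 (adjusted p = 0.0649) or SI replicate 1 for the latter.

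Pde10a encodes a dual-specificity enzyme best known from the striatum of the brain. Its 8 OCRs lay in an upstream set of 4, from -21 kb to -1.7 kb, an OCR at +66 kb, and 3 OCRs in intron 2 from +330 kb to +346 kb. The 3 intronic OCRs each differed among the tested tissues, and lung was lowest at each of them. Their summed level was 13.3 and 12.5 CPM in lung against 36.4 and 39.2 in BM, 27.9 and 33.0 in SI, and 24.2 and 28.4 in pancreas, beside 49.9 and 54.6 in LI, and no library of another tissue came down to the lung values.

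Pde10a +346 kb (chr17:8871987-8872728), printed above, had 25.6 and 25.1 CPM in BM, 15.9 and 20.7 in SI, 15.1 and 18.9 in pancreas, and 7.88 and 8.39 in lung, beside 30.3 and 35.4 in LI. BM lay above and lung below the overlapping SI and pancreas libraries. BM exceeded lung 3.11-fold (log2 difference 1.64, SE 0.22, adjusted p = 9e-05), SI exceeded it 2.25-fold (adjusted p = 0.00122), and pancreas 2.08-fold (adjusted p = 0.0121), and the difference of BM over lung was called in each of the 17 alternatives. Pde10a +341 kb (chr17:8867509-8868056) had 3.29 and 2.15 CPM in lung and between 5.39 and 8.47 CPM in BM, pancreas, and SI. BM exceeded lung 2.78-fold (adjusted p = 0.00212), a call that was lost without lung replicate 2 (adjusted p = 0.0617). The call of BM over lung at +330 kb (2.44-fold, adjusted p = 0.0136) was lost without BM replicate 2, without either lung library, and in thinned counts.

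Among the upstream OCRs, Pde10a -1.7 kb (chr17:8524782-8525398), which covers the start of a predicted transcript, was 1.94-fold higher in SI (10.3 and 7.84 CPM) than in BM (4.70 and 4.65 CPM; adjusted p = 0.0158). This call was lost without either BM library or without SI replicate 1, where the adjusted p was 0.0754, 0.0842, and 0.105. The other 3 upstream OCRs did not pass the test among the 4 tissues, with an adjusted p of 0.0718 at -21 kb, 0.307 at -18 kb, and 0.0793 at -2.4 kb.

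Pde4d is the longest of the genes, and of its 29 OCRs, 28 lay in introns and 1 upstream, at -11 kb. Of the 29, 12 differed, against 42.8% of all tested OCRs. BM was highest at 6 of the 12, pancreas at 5, and SI at 1, against 25.0%, 27.6%, and 30.5% of all OCRs that differed. SI was lowest at 6 and lung at 4, for which the shares over all OCRs were not computed. The most accessible OCR, Pde4d +1168 kb (chr13:109822169-109822797, intron 7), had between 57.6 and 99.5 CPM, with SI replicate 1 lowest and LI replicate 2 highest, and was not called among the 4 tissues (adjusted p = 0.234).

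Pde4d +998 kb (chr13:109651724-109652224, intron 3), printed above, was accessible in BM, with 8.12 and 5.34 CPM, and stood between 0.627 and 1.40 CPM in the other 8 libraries. It was 8.27-fold higher in BM than in SI (log2 difference 3.05, SE 0.52, adjusted p = 0.000451), 7.77-fold higher than in lung (adjusted p = 0.000576), and 6.88-fold higher than in pancreas (adjusted p = 0.00161). Further upstream, +302 kb and +310 kb were also highest in BM. At +302 kb (chr13:108956041-108956541, intron 2), BM had 4.75 and 3.59 CPM, pancreas 3.36 and 1.73, lung 0.980 and 0.386, and SI 0.818 and 0.139, beside 0.959 and 0.478 in LI. Replicate 1 exceeded replicate 2 in all 5 tissues there.

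Of the 5 OCRs of Pde4d that were highest in pancreas, 3 lay at +576, +578, and +584 kb and the others at -11 kb and +1169 kb. Pde4d +578 kb (chr13:109231965-109232491, intron 3) had 47.6 and 54.5 CPM in pancreas, 38.6 and 26.6 in lung, 19.6 and 26.9 in BM, and 17.0 and 20.1 in SI, beside 17.3 and 24.1 in LI. Pancreas lay above all other libraries and exceeded SI 2.74-fold (log2 difference 1.46, SE 0.24, adjusted p = 0.000542) and BM 2.19-fold (adjusted p = 0.00339). At Pde4d +584 kb (chr13:109237887-109238387), pancreas had 5.12 and 7.01 CPM against 1.11 and 0.836 in SI, a 6.22-fold difference (adjusted p = 0.00032), with BM, lung, and LI between 2.20 and 4.01 CPM. At Pde4d -11 kb (chr13:108642531-108643033), pancreas had 6.01 and 9.28 CPM, BM 4.65 and 5.57, SI 2.02 and 3.20, and lung 1.76 and 0.524. Pancreas exceeded lung 6.79-fold (adjusted p = 0.00398), a call that was lost without lung replicate 2 (adjusted p = 0.0727) or pancreas replicate 2 (adjusted p = 0.0559). At Pde4d +1169 kb (chr13:109823326-109823988), SI stood lowest with 16.3 and 17.9 CPM, and the 1.73-fold difference of pancreas over SI (adjusted p = 0.00989) was lost with library size alone (adjusted p = 0.0938) and without pancreas replicate 1 (adjusted p = 0.0628). The promoter OCR within Pde4d, +1249 kb (chr13:109902815-109903499), is a promoter by the TSS of Mir1904 and had 34.6 to 61.7 CPM with no call among the 4 tissues (adjusted p = 0.198).

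**Figure D4:**
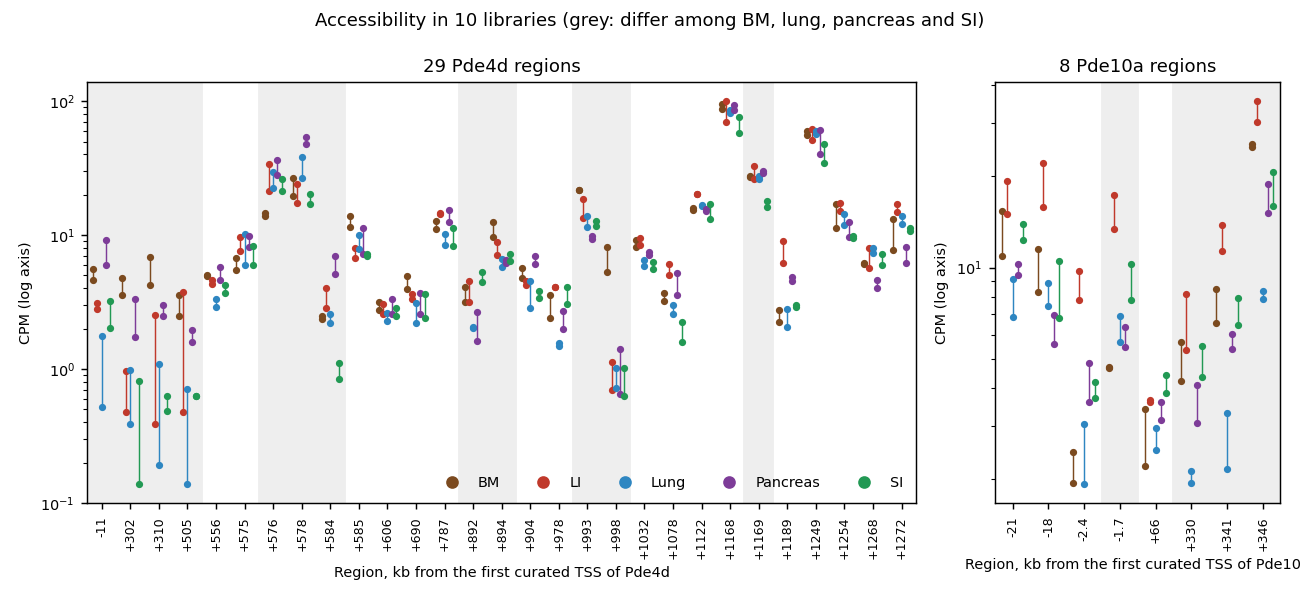
CPM (log axis) of the 29 Pde4d OCRs (left) and the 8 Pde10a OCRs (right) in order of their distance in kb from the first curated TSS, with 2 joined points for the libraries of each tissue and grey shading for OCRs that differed among BM, lung, pancreas, and SI. Pde4d +998 kb is high in BM alone, +578 kb and +584 kb are highest in pancreas, and lung is lowest at Pde10a +330, +341, and +346 kb.

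Pde4a had the highest OCR of the family per kb. Pde4a -4.2 kb (chr9:21161188-21161775), upstream of the gene, was highest in BM (107 and 122 CPM) and lung (112 and 115 CPM) and lower in SI (70.2 and 94.5 CPM), pancreas (77.1 and 72.9 CPM), and LI (51.6 and 64.5 CPM). The difference of BM over pancreas was 1.53-fold (log2 0.61, SE 0.19, adjusted p = 0.031) and was lost in 8 of the 17 alternatives, including library size alone (adjusted p = 0.0546) and the GC trend (adjusted p = 0.242). At the promoter OCR -0.6 kb (chr9:21164829-21165387), lung had 52.6 and 56.6 CPM, above the 21.3 to 44.8 CPM of all other libraries, and exceeded BM 1.94-fold (adjusted p = 0.0127; 0.183 without BM replicate 1 and 0.0894 without lung replicate 2).

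A different pair of tissues led at the internal promoter OCR Pde4a +31 kb (chr9:21196067-21196646, intron 6), which lies 59 bp from the start of a curated isoform. SI had 11.0 and 10.6 CPM and lung 8.70 and 9.0, whereas BM had 2.74 and 3.59, pancreas 1.71 and 4.10, and LI 3.49 and 4.82. SI exceeded pancreas 3.90-fold (log2 difference 1.96, SE 0.37, adjusted p = 0.00123), lung exceeded BM 2.79-fold (adjusted p = 0.00566), and the former call held in each of the 17 alternatives.

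Pde7a, which encodes a cAMP-specific enzyme with high affinity, had its highest mean level per kb at +53 kb (chr3:19258515-19259081, intron 2). This OCR had 38.3 and 44.6 CPM in BM and 24.6 and 24.7 in pancreas (1.68-fold, adjusted p = 0.0275), a call that was lost when either library of BM or of pancreas was left out. The promoter OCR Pde7a -0.2 kb (chr3:19311155-19311850), printed above, had 22.1 to 36.1 CPM in the 10 libraries and was not called (adjusted p = 0.225). Pde7a +6.7 kb (chr3:19304380-19304926, intron 1) was lowest in BM, with 3.72 and 3.31 CPM while lung had 6.43 and 6.90, pancreas 6.60 and 6.90, and SI 9.15 and 11.4, beside 12.0 and 16.2 in LI. No library of another tissue overlapped with BM, and SI exceeded BM 2.92-fold (log2 difference 1.54, SE 0.27, adjusted p = 0.000583).

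Pde3b, whose product is inhibited by cGMP and is best known from insulin signalling in fat and liver, had no OCR over its start. Its most accessible OCR, +65 kb (chr7:114479893-114480420, intron 1), was similar in level in all tissues, with 34.8 to 46.9 CPM (adjusted p = 0.823). Pde3b +38 kb (chr7:114453271-114453826, intron 1) had 14.5 and 6.41 CPM in SI, 5.30 and 5.18 in pancreas, 3.67 and 3.27 in BM, and 2.08 and 2.62 in lung, and SI exceeded lung 4.40-fold (adjusted p = 0.000684). The SI libraries differed by more than the distance of the lower of them from pancreas, and SI over pancreas was not called (adjusted p = 0.0673). In contrast, pancreas was the highest of the tested tissues at +67 kb (chr7:114482381-114482881), with 6.18 and 6.58 CPM against 1.69 to 3.10 CPM in BM, lung, and SI (2.86-fold over SI, adjusted p = 0.006), and at +105 kb (chr7:114520061-114520561, intron 9), with 3.06 and 5.50 CPM against 0.883 to 1.86 CPM. At the latter, the 4.18-fold difference over lung (adjusted p = 0.00973) was lost without lung replicate 2 (adjusted p = 0.15) or pancreas replicate 2 (adjusted p = 0.124).

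Pde8a, which encodes a cAMP-specific enzyme of very high affinity, had 4 OCRs. Its promoter OCR at -0.4 kb (chr7:81212239-81213510) had 63.7 and 60.1 CPM in SI and 59.5 and 64.8 in lung, but 49.5 and 43.5 in pancreas and 46.0 and 42.5 in BM, with LI at 56.8 and 50.0. SI and lung lay above pancreas and BM. The F test called it (adjusted p = 0.0448), but no pair of tissues passed, with the smallest adjusted p at 0.0526. Pde8a +113 kb (chr7:81326040-81326540), in a coding exon, had 3.47 and 4.04 CPM in SI and 1.32 and 1.10 in BM (3.09-fold, adjusted p = 0.0245), and this call was lost when any library of BM or SI was left out.

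**Figure D5:**
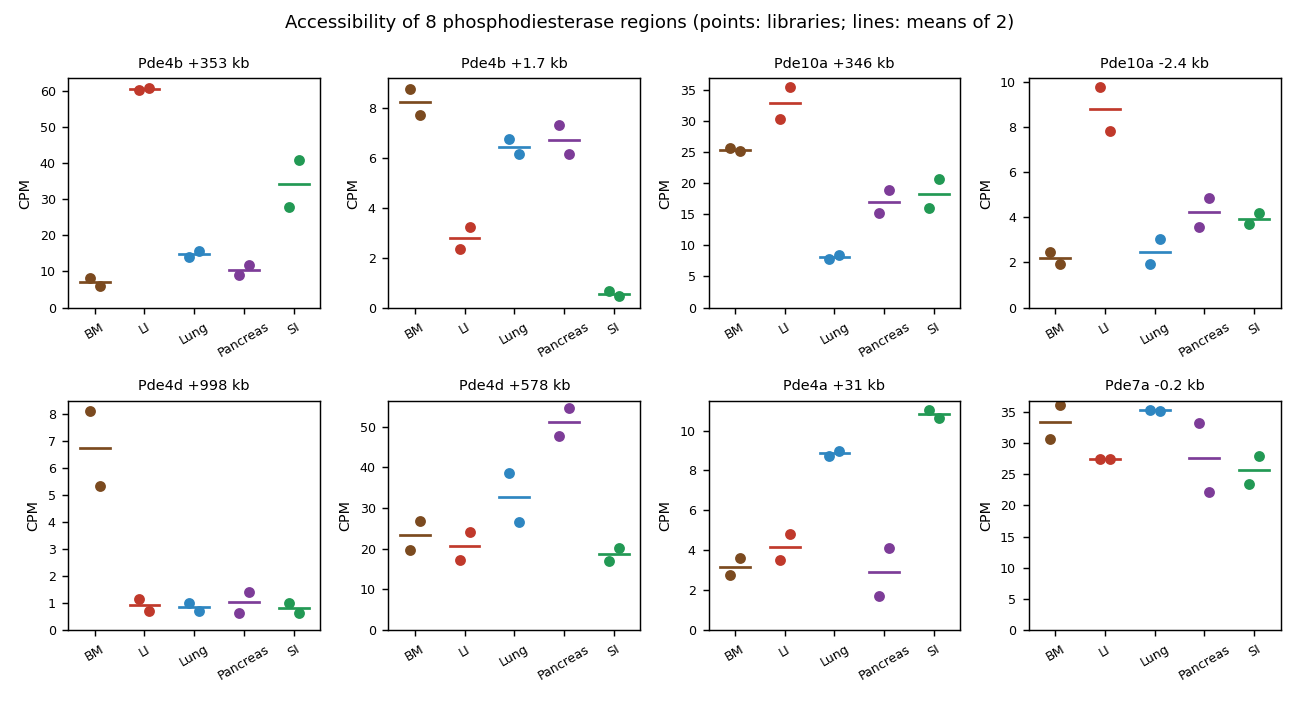
CPM (y axis, from 0) of 8 OCRs in the 5 tissues, with points for the 2 libraries and a line for their mean. Pde4b +353 kb is high in LI and SI, Pde4b +1.7 kb is low in SI, Pde10a +346 kb is lowest in lung, Pde4d +998 kb is high in BM alone, Pde4d +578 kb is highest in pancreas, and Pde4a +31 kb is high in SI and lung.

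The LI values, on which the genes were selected, are described here without a test. Both LI libraries lay above the other 8 at 24 of the 96 members (25.0%), against 4.68% of all tested OCRs, with 9 at Pde4b, 5 at Pde10a, 4 each at Pde4d and Pde7a, 2 at Pde3b, and none at Pde4a or Pde8a. Both were below the other 8 at 1 member (1.04%), Pde4a -4.2 kb, against 3.25% of all tested OCRs. The median over OCRs of log2 CPM in LI minus the mean of the other 4 tissues was 1.13 at Pde10a, 0.81 at Pde4b, 0.65 at Pde7a, 0.33 at Pde3b, 0.21 at Pde4d, 0.13 at Pde8a, and -0.26 at Pde4a, against 0.36 over all members and 0.02 over all OCRs. Between the 2 libraries of a tissue, chi-square per degree of freedom on raw counts was 56.0 in LI and 12.8 to 27.5 in the other tissues. This measure weighs the largest OCRs and deeper libraries more. By Spearman rho, SI (0.927) and not LI (0.947) had the lowest agreement. The largest values at Pde4b were 2.13 at +353 kb, 1.64 at +139 kb, and 1.56 at +370 kb.

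At Pde4b +139 kb (chr4:102393488-102393988), LI had 5.67 and 2.69 CPM, SI 1.78 and 2.72, and the other libraries 0.690 to 1.94, so that LI replicate 2 fell just below an SI library. At Pde10a, the largest were 1.49 at -2.4 kb, 1.27 at -1.7 kb, and 1.22 at +341 kb. Pde10a -2.4 kb (chr17:8524103-8524641), printed above, had 9.76 and 7.82 CPM in LI and 1.92 to 4.85 CPM in the other 8 libraries. LI was high at both the upstream and the intronic OCRs of Pde10a, with 54.1 and 66.7 CPM against 24.5 to 36.5 for the sum of the 4 upstream OCRs.

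Only some of the annotated starts of these genes were covered by an OCR. When all RefSeq start sites, predicted ones included, were grouped within 500 bp, an OCR covered 2 of 7 groups at Pde4b, 2 of 6 at Pde4a, 1 of 7 at Pde4d, 1 of 7 at Pde10a, 1 of 4 at Pde7a, the single start of Pde8a, and 0 of 1 at Pde3b. At Pde4b, the covered starts were internal ones, at +316 kb and +333 kb. The group that holds the first curated start was 1211 bp from the nearest OCR. At Pde4d, the covered start was that of predicted transcripts, under +787 kb (8.26 to 15.3 CPM), and the curated start was 11144 bp from an OCR. An OCR that does not reach a start site says nothing about transcription from it.

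Motif matches were counted in the central 300 bp of the members and of all OCRs. The cAMP response element TGACGTCA was matched in 3 members, 1 each at Pde4b, Pde4d, and Pde7a (3.13% against 1.32% of all OCRs), and its short form TGACG, which the full element contains, in 34 (35.4% against 21.0%), including 6 of 9 OCRs at Pde3b, 5 of 8 at Pde4a, and 5 of 8 at Pde10a. AP-1 TGANTCA was found in 19 members (19.8% against 18.3%), the GATA motif AGATAA in 21 (21.9% against 17.1%), ROR AGGTCA in 16 (16.7% against 18.0%), RUNX TGTGGT in 27 (28.1% against 29.1%), ETS GGAAGT in 25 (26.0% against 27.1%), KLF GGGTGT in 16 (16.7% against 17.8%), and the Ahr core TNGCGTG in 0 (against 5.21%). In the printed sequence of Pde4b +353 kb, 2 AP-1, 2 RUNX, and 1 KLF match were present. These matches are letters in a window and were not tested as sites.

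The rest of the cyclic nucleotide pathway was examined in the same fit. Of 71 further genes in 7 lists, 60 had OCRs, and 152 of their 319 OCRs differed among BM, lung, pancreas, and SI (47.6%, against 42.8% of all tested OCRs). In the list of the other genes with a phosphodiesterase symbol, 33 of 80 OCRs differed, with 31 of 69 at the 14 genes of catalytic subunits and 2 of 11 at Pde4dip, whose product binds PDE4D, and the genes of non-catalytic subunits Pde6d, Pde6g, and Pde6h. The count was 9 of 21 for adenylyl cyclases, 5 of 17 for guanylyl cyclases, 19 of 35 for protein kinase A subunits and inhibitors, 19 of 49 for the CREB family and its coactivators, and 4 of 7 for EPAC. The list of receptors coupled to Gs and G protein subunits had 63 of 110. Within it, 31 OCRs (28.2%) were higher in lung than in SI and 3 (2.73%) in the opposite direction, against 9.86% and 11.1% of all OCRs. Pancreas was higher than SI at 33 (30.0%) and lower at 6 (5.45%), against 12.0% and 8.45%, and BM was higher than SI at 31 (28.2%) and lower at 9 (8.18%), against 10.7% and 15.1%. BM was lower than pancreas at 23 (20.9%) and higher at 8 (7.27%), against 14.3% and 9.89%, and lower than lung at 19 (17.3%) and higher at 4 (3.64%), against 11.5% and 7.56%.

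The OCR with the smallest p in each list was named by rule. Pde1c, a calmodulin-dependent phosphodiesterase, had an intragenic OCR (chr6:56367851-56368460) with 38.3 and 38.8 CPM in SI against 2.13 to 5.83 CPM in BM, lung, and pancreas (F test, adjusted p = 1.77e-07), beside 14.2 and 18.3 in LI. All 6 OCRs assigned to Pde1c differed. Ramp1, a subunit of the receptor for the neuropeptide CGRP, had the opposite order at chr1:91193167-91193684, with 3.51 and 3.87 CPM in SI and 29.6 to 42.9 CPM in the 6 libraries of BM, lung, and pancreas (adjusted p = 2.58e-07), and all 11 of its OCRs differed. Adcy7, an adenylyl cyclase abundant in hematopoietic cells, was lowest in BM (7.54 and 4.88 CPM) and highest in lung (37.8 and 39.6 CPM) at chr8:88297926-88298507 (adjusted p = 4.55e-06).

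Both Prkar2b and Rapgef3 were highest in BM at their leading OCRs. Prkar2b, a regulatory subunit of protein kinase A, had 8.56 and 4.65 CPM in BM and 0.0552 to 1.08 CPM in the other 8 libraries at the intergenic OCR chr12:32122904-32123404 (adjusted p = 2.15e-05). Rapgef3, which encodes EPAC1, had 23.1 and 31.3 CPM in BM and 8.20 to 13.2 CPM elsewhere at chr15:97748207-97748723 (adjusted p = 0.000195). Creb1 was high in lung (18.5 and 16.5 CPM) and low in pancreas (4.77 and 3.99 CPM) at the intergenic OCR chr1:64486107-64486755 (adjusted p = 0.000377), and the promoter OCR of Gucy1b1 was lowest in lung (2.51 and 1.77 CPM) at chr3:82074436-82075017 (adjusted p = 0.00251).

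For a comparison with other genes, OCRs were grouped by their nearest TSS alone, and the log2 of their summed CPM was correlated over the 10 libraries. The genes most like Pde4b among 6174 genes with at least 3 such OCRs were Ccdc172 (Pearson r = 0.950), Foxp1 (0.948), and Mir222 (0.946). Those most like Pde10a were Arl6ip5 (0.953), Nmbr (0.949), and 3830408C21Rik (0.943). These values describe a choice of the highest among many genes in the same 10 libraries, which share depth and composition between the genes, and carry no test.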

How the data were processed

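ATAC-seq reads of 10 libraries were processed by the authors with FastQC 0.11.9, Bowtie2 2.2.9 (mm10, uniquely mapped reads), SAMtools 1.8, and MACS2 2.1.1. OCRs present in each replicate were combined across tissues with HOMER, and the deposited values are raw counts of reads per OCR from bedtools multicov, with no normalization. The handling of duplicates, mitochondrial reads, and the Tn5 offset is not given in the sources used here.

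From these counts, OCRs with at least 1 count (49981 of 50039) were fitted in R 4.3.3 with edgeR 4.0.16, with TMM factors, tissue as the only term, and 5 residual degrees of freedom. Quasi-likelihood tests compared BM, lung, pancreas, and SI by an F test and in 6 pairs, and p-values were adjusted by Benjamini-Hochberg over all OCRs. Total counts were 10282987 to 32797872. With 2 libraries per tissue, the p-values measure the spread between those libraries. CPM are counts scaled by the TMM-normalized library size, and log2 CPM used a prior count of 2. Each SE was derived from the log2 difference and its F statistic.

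The members, gene lists, markers, and motifs were chosen with earlier results of these data known. Named OCRs were, for each gene, the most accessible, the promoter OCRs, and those with the smallest p or the largest LI difference. Some OCRs that met this rule were not described. Among them were the promoter OCR Pde4a +18 kb (F test, adjusted p = 0.134) and the intronic OCRs Pde4a +6.8 kb and Pde4a +16 kb (F test, adjusted p = 0.0110 and 0.0162). Other OCRs and blocks named in the text were chosen after their values were seen. Matches to RefSeq use symbols, and all 71 list genes matched. The nearest gene is a convention and not evidence of a target. In simulated counts of 49981 regions, 100 were raised 2-fold and 100 were raised 4-fold in BM only, and the rest were unchanged. The F test recovered 57 of the former and 99 of the latter. Far fewer regions differed there than in the data (42.8%), which makes the adjusted threshold stricter. These rates therefore do not describe the members. Alternatives were library size alone, DESeq2 1.42.0, a GC trend, thinned counts, other assignments, the replicate number as a block, and leaving out each library. Figures were drawn with matplotlib.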

Additional observations from a re-analysis of the deposited data

How the results depend on the processing

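The number of members that differed among BM, lung, pancreas, and SI was 48, and leaving out 1 library at a time gave 33 (without lung replicate 2) to 48, with the tissue left at 1 library assumed to vary like the others. Over the same fits, the count ranged from 7 to 25 for BM and lung (reported 21, and 8, 12, and 7 without BM replicate 1, BM replicate 2, and lung replicate 2), from 4 to 20 for BM and pancreas (reported 17, and 4, 8, 10, and 8 without BM replicates 1 and 2 and pancreas replicates 1 and 2), and from 12 to 29 for BM and SI (reported 28, and 16, 12, and 17 without BM replicates 1 and 2 and SI replicate 1). It ranged from 11 to 26 for lung and SI (reported 26, and 14, 11, and 15 without lung replicates 1 and 2 and SI replicate 1), from 13 to 25 for pancreas and SI (reported 25, and 13 without pancreas replicate 1), and from 0 to 17 for lung and pancreas (reported 7, with 0 without lung replicate 2 and 17 without either SI library). The LI medians ranged from 0.74 to 0.87 at Pde4b and from 1.02 to 1.24 at Pde10a, and the pathway count from 116 to 164 (reported 152).

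Assigning OCRs by the nearest TSS alone gave 10 for BM and pancreas, and an unadjusted p under 0.05 gave 47 for BM and SI. For lung and pancreas, the count was 11 with library size, 33 with an unadjusted p, 19 from the 4 libraries alone, 11 with DESeq2, and, in alternatives chosen after seeing the data, 4 in thinned counts and 19 with the replicate block on those 4 libraries. The LI median of Pde4b was 0.67 with library size, 0.79 with DESeq2 size factors, 0.60 with the GC trend removed, 0.80 with a prior count of 5, and 0.82 in thinned counts. The cause was not tested.

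Same-numbered libraries deviated together in 4 of 10 tissue pairs (r over 0.1, range -0.218 to 0.196), so the numbers were not taken to pair them. With the replicate block, 46 members differed, and the pairs gave 21, 17, 28, 8, 26, and 26. Library size moved the median of all OCRs by -0.21 for BM minus lung, -0.20 for BM minus SI, 0.25 for lung minus pancreas, and -0.24 for pancreas minus SI. Of 816 values of 48 followed differences, 739 kept their call, 72 lost it, 5 gained one, and 0 changed direction. A minimum mean count of 10 removed no OCR.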
